A study of Mus musculus with 6 samples.

Results

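The genes described here are 9 of the 21700 in the expression table, chosen by name for their place in the signals that drive scarring around bile ducts. They are the ligands Tgfb1, Tgfb2 and Tgfb3 of the transforming growth factor beta (TGF-beta) family, the receptors Tgfbr1 and Tgfbr2, the inhibitor Smad7, the platelet-derived growth factor (PDGF) genes Pdgfa and Pdgfb, and Edn1, the gene of endothelin 1. All 9 were in the table under these names and all 9 passed the filter on low values described below. RNA-seq was run on biliary epithelial cells (BECs), the cells that line the bile ducts, sorted by flow cytometry from livers of wild-type (WT) female C57BL/6 mice. The non-pregnant group held 3 libraries and the pregnant group, taken at dpc8 (8 days post coitum), held 3. No transgene, deletion or drug is named for either group, and neither the age of the mice nor the sorting antibodies are given in the sources used here. The labels do not tie libraries to separate animals, and the p-values measure the spread between these libraries, which may be technical.

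TGF-beta is secreted in a latent form and, once released, brings a type II and a type I receptor together, which phosphorylate SMAD proteins that enter the nucleus. In the liver it is best known for driving stellate cells and portal fibroblasts to lay down collagen and for restraining epithelial growth. PDGF ligands act on receptors of mesenchymal cells as mitogens and chemoattractants, and endothelin 1 is a potent constrictor peptide that acts on vascular and stellate cells. Injured bile duct cells are a known source of such signals, which reach neighbouring cells in the portal tract.

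Values are FPKM, fragments scaled to exon length and by a factor for each library, as the authors deposited them. Levels of different genes are thus on a per-length scale. Multiplied by exon length, the values of these 9 genes were whole multiples of a single step in every library, which gave between 771 and 8987 fragments per gene and library. Over all genes each library held between 24448312 and 34285323 such fragments. The cells had the profile of biliary epithelium, with Epcam, an adhesion molecule of bile duct cells, between 182 and 195 FPKM, Krt19, a ductal keratin, between 220 and 386 FPKM and the transcription factor Sox9 between 276 and 332 FPKM. Markers of other cells were present too, and not evenly. The 8 hepatocyte markers summed to between 2396 and 2968 FPKM across the non-pregnant libraries and between 2393 and 2716 FPKM across the pregnant ones. Alb (1973 to 2550 FPKM) and Ttr (264 to 387 FPKM) carried most of that sum. Apoa1, Cps1, Cyp3a11, Cyp2e1 and Fgb stayed at or below 8.03 FPKM in every library. Of the 8, 7 were tested and 0 called, with 2 above and 5 below 0 in their change. The 10 endothelial markers summed to 247 FPKM in non-pregnant library 2 and to between 20.2 and 38.1 FPKM in the other 5 libraries, and Stab2, Clec4g and Oit3, all known from sinusoidal endothelium, were the highest of them there. The 10 Kupffer cell markers summed to between 21.1 and 51.4 FPKM across the non-pregnant libraries and between 64.8 and 132 FPKM across the pregnant ones. Csf1r alone held between 19.1 and 43.7 FPKM of it in the non-pregnant group and between 29.9 and 37.7 FPKM in the pregnant group. All the other Kupffer cell markers were higher in every pregnant library. Cd5l stood at 0.918 ± 0.521 and 14.7 ± 5.40 FPKM and Clec4f at 0.962 ± 0.614 and 12.7 ± 6.19 FPKM (SD, n = 3 each). Those of stellate cells and fibroblasts summed to between 39.8 and 44.6 and between 37.5 and 42.8 FPKM, a sum carried by Rgs5 (27.1 to 33.6 FPKM), while the defining stellate genes Lrat and Des stayed at or below 0.229 FPKM in every library. Other genes of that list, Reln (7.47 ± 1.44 and 5.45 ± 0.825 FPKM), Dcn (1.80 ± 0.606 and 0.847 ± 0.277 FPKM) and Lum (0.346 ± 0.0878 and 0.0964 ± 0.0564 FPKM; SD, n = 3 each), were lower in every pregnant library, and 0 of the 5 tested were called. Of those 5, 3 were higher in pregnancy in their log2 change and 2 lower. Spearman correlations between libraries, over the tested genes, were lower among the non-pregnant libraries (0.956 to 0.979) than among the pregnant ones (0.991 to 0.995).

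The promoters are shown for Tgfb2 and Edn1, whose values did not overlap between the groups, and for Tgfb1, a ligand of the same family whose values did. Each is the 250 bases before the RefSeq transcript start (GRCm38.p6), 5′ to 3′ on the gene's strand, with the matched motif letters in capitals. Motifs searched on both strands were CACGTG (E-box), TGACG (a half-site of the cyclic AMP response element, CRE), TGANTCA (AP-1), CAGAC (SMAD box), GATAA (bound by GATA factors), GGAATG (TEAD factors), the CCAAT box, and GGGCGG (GC box). The TATA box, with the letters TATAAA, was searched on the gene's strand alone.
Tgfb2, chr1:186705990-186706239, minus strand: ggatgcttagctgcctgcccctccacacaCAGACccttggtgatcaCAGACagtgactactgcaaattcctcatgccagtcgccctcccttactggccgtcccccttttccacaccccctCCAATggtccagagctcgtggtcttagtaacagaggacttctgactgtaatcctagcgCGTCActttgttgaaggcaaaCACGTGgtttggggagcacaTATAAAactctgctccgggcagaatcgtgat
Edn1, chr13:42301226-42301475, plus strand: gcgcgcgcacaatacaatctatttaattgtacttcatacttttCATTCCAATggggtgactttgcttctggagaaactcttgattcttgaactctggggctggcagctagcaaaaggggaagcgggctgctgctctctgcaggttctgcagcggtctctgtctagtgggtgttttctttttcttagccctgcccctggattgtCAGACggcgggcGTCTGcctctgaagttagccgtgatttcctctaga
Tgfb1, chr7:25686752-25687001, plus strand: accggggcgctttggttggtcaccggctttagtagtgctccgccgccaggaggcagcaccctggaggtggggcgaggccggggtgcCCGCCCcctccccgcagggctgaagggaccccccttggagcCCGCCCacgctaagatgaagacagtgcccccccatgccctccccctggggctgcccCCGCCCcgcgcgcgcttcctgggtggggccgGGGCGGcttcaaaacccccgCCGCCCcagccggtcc

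The Tgfb2 window holds a TATA box whose first letter lies 31 bases before the start, an E-box at 51 bases and a CRE half-site at 72 bases, and further out a CCAAT box at 130 bases and SMAD boxes at 204 and 221 bases. Of 32817 windows of this length, 7.60% hold the TATA letters, 6.02% the E-box, 17.7% the CRE half-site, 33.8% CCAAT and 42.2% the SMAD box. The Edn1 window holds SMAD boxes at 35 and 47 bases before the start, and a TEAD motif at 207 bases whose letters overlap those of a CCAAT box at 203 bases. The TEAD letters are in 12.6% of windows. Neither holds AP-1 or GATA letters (6.75% and 22.6% of windows), which says only that those letters are not in these 250 bases. The Tgfb1 window has none of these and has 5 GC boxes, and 75.2% of its bases are G or C, against 53.6% for Tgfb2, 50.4% for Edn1 and a median of 52.4% over all windows. GC boxes are in 32.7% of windows. Of the 9 genes, 6 had an entry in the promoter table. Among the windows not printed, that of Tgfbr2 holds a SMAD box and CCAAT boxes and no GC box (58.4% G or C). A window of Tgfbr1 holds a SMAD box (52.8%), and its other window CCAAT and GC boxes (74.8%). A window of Pdgfa holds a CRE half-site beside GC boxes (72.4%). The values of these genes overlapped between the groups, so SMAD, CCAAT and CRE letters were not particular to Tgfb2 and Edn1. TATA, E-box and TEAD letters were in none of these windows. A match describes the letters and is no evidence that a factor binds there.

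The order of levels was stable at the top and mixed below. Smad7 was the most abundant of the 9 in all 6 libraries, followed in each by Pdgfa and then Tgfb3. Below them Edn1, Tgfb2 and Pdgfb changed places between libraries, and Tgfbr1, Tgfbr2 and Tgfb1 filled the last places in 5 of the 6. Tgfb1 was the lowest in 5 libraries and Tgfbr1 in non-pregnant library 2. Among the non-pregnant means, Tgfbr1 and Tgfbr2 (8.38 ± 1.80 and 8.23 ± 0.649 FPKM, SD, n = 3 each) differed by less than the spread between libraries, while Pdgfa and Tgfb3 (25.5 ± 4.36 and 21.1 ± 4.05 FPKM) differed by about 1 SD.

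**Figure D1:**
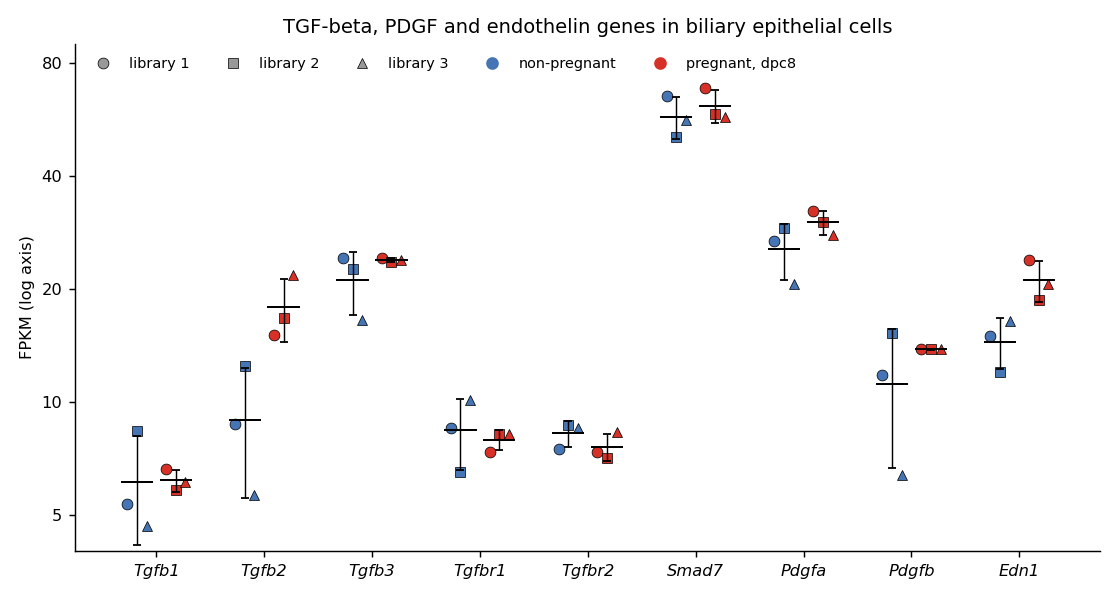
FPKM (log axis) of the 9 genes in each of the 6 libraries, with non-pregnant libraries in blue and pregnant libraries in red, symbols for the library number, and bars for the group mean and SD (n = 3). Tgfb2 and Edn1 are the genes whose pregnant libraries all lie above the non-pregnant ones, and the non-pregnant libraries are the more scattered for Tgfb1, Tgfb3 and Pdgfb.

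In pregnancy Tgfb2 and Edn1 stood higher in every library than in any non-pregnant one, the other 7 genes overlapped between the groups, and none of the 9 passed the test over all genes. The comparison, the only one the labels give, asks what distinguishes early pregnancy in the transcripts of bile duct cells. Changes are differences of log2(FPKM + 1), pregnant minus non-pregnant, fitted with limma on the 11412 genes that averaged 1 FPKM or more over the libraries, and p-values are adjusted over all of these by the Benjamini-Hochberg method. Of all tested genes, 10 (0.0876%) had an adjusted p under 0.05, and 0 of the 9 did. Of all tested genes, 7 (0.0613%) passed and stood higher, and 3 (0.0263%) passed and stood lower. At an unadjusted p under 0.05 there were 2 of the 9, Tgfb2 and Edn1, both higher, against 13.4% of all tested genes (7.09% higher and 6.3% lower). Groups that did not overlap, higher in pregnancy, were found for 2 of the 9 and 9.9% of all tested genes, and groups lower in pregnancy for 0 of the 9 and 12.2%, or 22.1% in either direction. The change was above 0 in 7 of the 9 and in 44.8% of all tested genes, with a median of 0.19 over the 9 and -0.02 over all. limma-voom on the recovered fragments also called 0 of the 9, and only 1 of all the genes it tested. The biliary markers lay in the same direction as Tgfb2 and Edn1: of 7, all 7 were above 0 and 0 called, and Krt19 (1.31-fold), Cftr (1.66-fold), Spp1 (1.25-fold) and Epcam (1.05-fold) were higher in every pregnant library. Their part in the Tgfb2 and Edn1 values was not tested. In bulk libraries such as these, fewer cells of a type and less RNA per cell cannot be told apart.

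Tgfb2, the ligand known for its role in epithelial and mesenchymal development, had the largest difference between group means of the 9. It stood at 8.71, 12.4 and 5.65 FPKM in non-pregnant libraries 1 to 3 and at 15.1, 16.7 and 21.7 FPKM in pregnant libraries 1 to 3. The lowest pregnant library lay above the highest non-pregnant one, and each group spread over several FPKM. The means were 8.93 ± 3.40 and 17.9 ± 3.44 FPKM (SD, n = 3 each), a 1.999-fold difference. The log2 change was 0.97 ± 0.245 (SE; 95% interval 0.40 to 1.54; limma unadjusted p = 0.00449, adjusted p = 0.290). It was larger than that of 99.7% of all tested genes. Tgfb2 passed without non-pregnant library 2, the library with the high endothelial markers (log2 change 1.22, limma adjusted p = 0.0395, where 1.17% of all tested genes passed), and with array weights, which down-weight libraries that stand apart (0.86, limma adjusted p = 0.0105, where 11.4% passed). It did not pass under the other 17 alternatives. The gene (ENSMUSG00000039239) spans chromosome 1 from 186622792 to 186705989 on the minus strand in mm10 coordinates, and 124 bases of its exons lie opposite an antisense gene, whose reads cannot be told apart unless counting used the strand, which is not given in the sources used here.

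Tgfb3, which encodes the ligand known for its role in palate and lung development, was the most abundant TGF-beta transcript in every library. It stood at 24.2, 22.6 and 16.5 FPKM across the non-pregnant libraries and 24.2, 23.6 and 23.9 FPKM across the pregnant ones. The pregnant libraries lay within a narrow band that non-pregnant library 1 shared, while non-pregnant library 3 lay below it. The log2 change was 0.19 ± 0.132 (SE; 95% interval -0.12 to 0.50; limma adjusted p = 0.517), and it was 0.03 without non-pregnant library 3. Exons of Tgfb3 share 257 and 163 bases with a pair of genes on the opposite strand.

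Tgfb1, the ligand best known from immune and scarring tissue, was the least abundant of the family here. It stood at 5.34, 8.36 and 4.65 FPKM across the non-pregnant libraries and 6.61, 5.80 and 6.10 FPKM across the pregnant ones. All 3 pregnant values lay inside the range of the non-pregnant group, whose highest value came from library 2. The means were 6.12 ± 1.97 and 6.17 ± 0.410 FPKM (SD, n = 3 each), with a log2 change of 0.04 ± 0.175 (SE; 95% interval -0.36 to 0.45; limma adjusted p = 0.917). Its sign turned with the libraries used, from -0.11 without non-pregnant library 3 to 0.26 without non-pregnant library 2. The endothelial markers were also highest in non-pregnant library 2, and their part in the Tgfb1 value was not tested.

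Within each library Tgfb2 made up 22.8%, 28.6% and 21.1% of the summed FPKM of the 3 ligands in non-pregnant libraries and 32.9%, 36.2% and 42.0% in pregnant ones. These shares did not overlap between the groups. Tgfb3 made up 59.0 ± 6.00% and 50.02 ± 3.42% and Tgfb1 16.9 ± 2.67% and 12.9 ± 1.34% (SD, n = 3 each). The sum itself was 38.2, 43.4 and 26.8 FPKM against 45.9, 46.2 and 51.7 FPKM. An exact two-sided permutation test gave p = 0.1 for the Tgfb2 share and for the sum, the smallest p that 3 libraries against 3 allow, and p = 0.2 for the shares of Tgfb3 and Tgfb1. Over the 9 within-library quantities examined the exact permutation p adjusted by the Benjamini-Hochberg method was 0.225 for the first pair and 0.3 for the second.

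**Figure D2:**
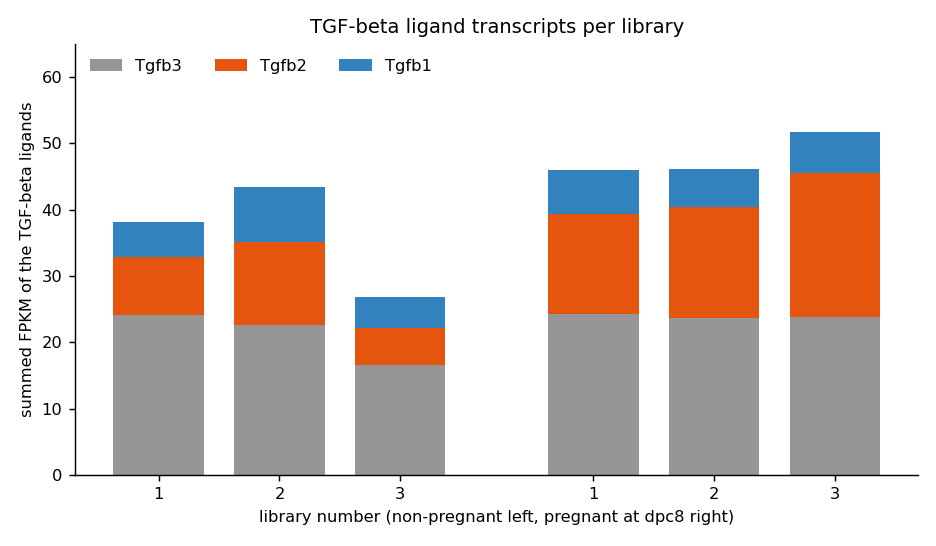
Summed FPKM of Tgfb3, Tgfb2 and Tgfb1 in each library (stacked bars from 0; non-pregnant libraries left, pregnant libraries right). The Tgfb2 segment is larger in the 3 pregnant libraries (15.1 to 21.7 FPKM) than in the non-pregnant ones (5.65 to 12.4 FPKM), while Tgfb3 stays between 16.5 and 24.2 FPKM.

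The receptors did not separate the groups. Tgfbr1, the type I receptor kinase, stood at 8.52, 6.51 and 10.1 FPKM across the non-pregnant libraries and 7.34, 8.20 and 8.20 FPKM across the pregnant ones, all pregnant values inside the non-pregnant range (log2 change -0.06 ± 0.139, SE; 95% interval -0.38 to 0.26; limma adjusted p = 0.856). Tgfbr2, the type II receptor that binds the ligand first, stood at 7.49, 8.68 and 8.52 FPKM and at 7.36, 7.06 and 8.30 FPKM, again overlapping (log2 change -0.11 ± 0.0896, SE; 95% interval -0.31 to 0.10; limma adjusted p = 0.585). The ratio of Tgfbr1 to Tgfbr2, on the FPKM scale, was 1.02 ± 0.239 and 1.05 ± 0.0973 (SD, n = 3 each; exact permutation p = 0.9).

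Smad7, the inhibitory SMAD that TGF-beta itself induces and that blocks the type I receptor, was far more abundant than the receptors. It stood at 65.4, 50.9 and 56.5 FPKM across the non-pregnant libraries and 68.6, 58.5 and 57.6 FPKM across the pregnant ones, above 94.95% of all tested genes in its mean level. The groups overlapped, with library 1 the highest of each. The log2 change was 0.10 ± 0.115 (SE; 95% interval -0.17 to 0.36; limma adjusted p = 0.696), and with array weights it was -0.027. Its FPKM were 3.49 ± 0.542 times the sum of both receptors in the non-pregnant and 3.999 ± 0.606 times in the pregnant group (SD, n = 3 each; exact permutation p = 0.4).

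The PDGF ligands stood higher in pregnancy in their means and overlapped between the groups. Pdgfa, which encodes the A chain, was at 26.9, 29.0 and 20.6 FPKM across the non-pregnant libraries and 32.3, 30.2 and 27.8 FPKM across the pregnant ones. Only pregnant library 3 lay below a non-pregnant library, number 2. The log2 change was 0.24 ± 0.129 (SE; 95% interval -0.06 to 0.54; limma adjusted p = 0.425), and it was 0.10 without non-pregnant library 3. On the other strand an antisense gene shares 813 bases with the exons of Pdgfa.

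Pdgfb, which encodes the B chain known as the main mitogen of stellate cells, was at 11.8, 15.3 and 6.36 FPKM across the non-pregnant libraries and 13.8, 13.8 and 13.9 FPKM across the pregnant ones. The pregnant libraries were nearly equal, and the non-pregnant ones lay on either side of them, spanning a 2.40-fold range. With 1459 to 1773 fragments each, the pregnant libraries agreed more closely (SD 0.0348 FPKM) than Poisson counting error on so many fragments, so the SD understates the error of the mean. The log2 change was 0.36 ± 0.252 (SE; 95% interval -0.22 to 0.95; limma adjusted p = 0.517). It rested on a single library, since without non-pregnant library 3 it was 0.04.

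Edn1 was the other gene whose groups did not overlap. It stood at 14.9, 12.01 and 16.4 FPKM across the non-pregnant libraries and 23.9, 18.6 and 20.6 FPKM across the pregnant ones, a gap of about the size of the spread within each group. The means were 14.5 ± 2.24 and 21.1 ± 2.66 FPKM (SD, n = 3 each), a 1.46-fold difference, with between 777 and 1362 fragments per library. The log2 change was 0.52 ± 0.131 (SE; 95% interval 0.21 to 0.82; limma unadjusted p = 0.00457, adjusted p = 0.290), larger than that of 98.1% of all tested genes. With array weights it passed (0.49, limma adjusted p = 0.0220, where 11.4% of all tested genes passed), and it did not pass under the other 18 alternatives. The gene (ENSMUSG00000021367) spans chromosome 13 from 42301476 to 42307990 on the plus strand in mm10 coordinates, and 35 bases of its exons lie opposite an antisense gene.

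Endothelial cells are a main source of endothelin 1 in most tissues, so Edn1 was set beside the endothelial markers. Edn1 was lowest in non-pregnant library 2, where the 10 markers summed to 247 FPKM. Of the 10, 9 were tested, 0 called and all 9 below 0 in their change. Vwf, not tested, had means of 0.0651 FPKM in the non-pregnant and 0.112 FPKM in the pregnant group. In the other 5 libraries the markers summed to between 20.2 and 38.1 FPKM. There Edn1 was at 14.9 and 16.4 FPKM in the non-pregnant and 18.6 to 23.9 FPKM in the pregnant libraries. Without non-pregnant library 2 the log2 change of Edn1 was 0.40 (limma adjusted p = 0.102). The part of endothelial cells in the Edn1 values was not tested. Of the 10 Kupffer cell markers 8 were tested, all 8 above 0 in their change and 3 called, and none of the 10 was at 0 in any library. They were lowest in pregnant library 3 among the pregnant libraries, where Tgfb2 was highest and Edn1 intermediate, and their part in either value was not tested.

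**Figure D3:**
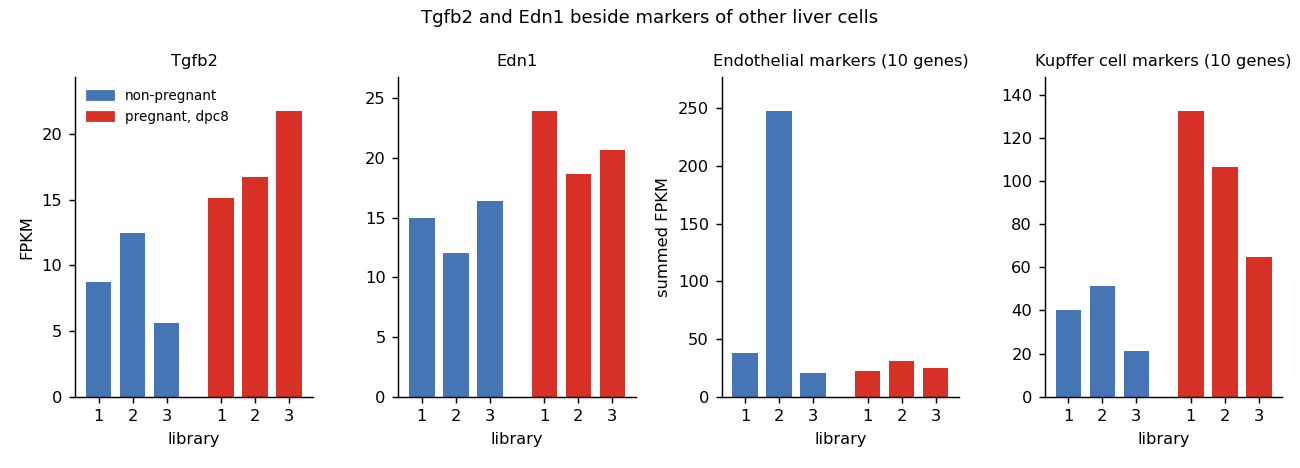
FPKM of Tgfb2 and Edn1 (left panels) beside the summed FPKM of 10 endothelial and 10 Kupffer cell markers (right panels) in each library; bars start at 0 and each panel has its own scale. Non-pregnant library 2 holds the highest endothelial sum (247 FPKM) and the lowest Edn1 (12.01 FPKM), and the Kupffer cell sum is 132 FPKM in pregnant library 1 and 64.8 FPKM in pregnant library 3.

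Receptors for the PDGF and endothelin ligands were barely transcribed in these cells. Pdgfra and Pdgfrb, the PDGF receptors of mesenchymal cells, stood between 0.0473 and 0.272 FPKM and between 0.188 and 0.694 FPKM over the 6 libraries. Ednra and Ednrb, the endothelin receptors, stood at no more than 0.0966 and 0.527 FPKM, with 0 to 16 and 8 to 68 fragments per library. None of the 4 passed the filter on low values, so none was tested. The other PDGF ligands were abundant, with Pdgfd at 47.4 ± 7.29 and 54.3 ± 2.66 FPKM, higher in every pregnant library (SD, n = 3 each; limma adjusted p = 0.454) and Pdgfc at 47.3 ± 6.67 and 45.2 ± 7.56 FPKM (limma adjusted p = 0.834), both above Pdgfa and Pdgfb in every library on the per-length scale.

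Of the genes for endothelin processing, its receptors and the other endothelin ligands, 3 of 8 were tested and 0 passed in either direction. Mme, which encodes neprilysin, a membrane protease that degrades endothelin and other peptides, stood at 6.18, 5.90 and 5.50 FPKM across the non-pregnant libraries and 7.89, 9.11 and 10.3 FPKM across the pregnant ones. The groups did not overlap, and the log2 change was 0.55 ± 0.101 (SE; limma adjusted p = 0.199). With array weights Mme passed (limma adjusted p = 0.0159, where 11.4% of all tested genes passed). Ece1, which encodes the enzyme that cuts big endothelin to its active form, stood at 46.4 ± 2.26 and 42.1 ± 3.30 FPKM, lower in every pregnant library (SD, n = 3 each; limma adjusted p = 0.463), and Edn2, the gene of a related endothelin, at 2.52 ± 0.695 and 2.21 ± 0.197 FPKM (limma adjusted p = 0.731). Kel was at 0 in all 6 libraries.

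Of the genes that store latent TGF-beta or release it, 8 of 10 were tested and 0 passed in either direction, with 5 above and 3 below 0 and a median log2 change of 0.05. Thbs1, which encodes thrombospondin 1, an activator of latent TGF-beta, stood at 25.9, 19.1 and 18.8 FPKM across the non-pregnant libraries and 33.8, 27.4 and 38.6 FPKM across the pregnant ones. These groups did not overlap (log2 change 0.62 ± 0.158, SE; limma adjusted p = 0.290). Itgb8, a chain of the integrin that releases TGF-beta at the cell surface, did not overlap either, at 18.9 ± 1.94 and 21.5 ± 1.23 FPKM (SD, n = 3 each; limma adjusted p = 0.421). Furin, the protease that cleaves the precursor, was at 51.04 ± 7.61 and 41.6 ± 4.55 FPKM (limma adjusted p = 0.377).

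Co-receptors and signalling SMADs comprised 7 tested genes, 0 past the threshold, 2 above and 5 below 0, with a median of -0.11. Tgfbr3, which encodes betaglycan, the co-receptor that presents TGF-beta 2 to its receptors, stood at 5.34, 7.53 and 4.90 FPKM across the non-pregnant libraries and 4.14, 3.88 and 2.94 FPKM across the pregnant ones. It was thus lower in every pregnant library, opposite to Tgfb2 (log2 change -0.57 ± 0.160, SE; limma adjusted p = 0.295), and with array weights it passed (limma adjusted p = 0.0315). Of all tested genes, 11.4% passed with array weights. Pdgfra and the mesenchymal genes Reln, Dcn and Lum were also lower in every pregnant library. The stellate and fibroblast list that holds Reln, Dcn and Lum was mixed. Of its 5 tested genes 3 were above 0 and 2 below, with a median of 0.05. The part of mesenchymal cells in the Tgfbr3 value was not tested. Smad4, the SMAD shared by the family's pathways, was at 39.9 ± 4.82 and 34.8 ± 1.503 FPKM, lower in every pregnant library (SD, n = 3 each; limma adjusted p = 0.421), and Acvrl1, a type I receptor best known from endothelium, at 2.998 ± 0.204 and 3.43 ± 0.215 FPKM, higher in every one (limma adjusted p = 0.446). Eng, an endothelial co-receptor picked with its values already seen, stood at 56.6 FPKM in non-pregnant library 2 and between 3.20 and 7.38 FPKM in the others, as the endothelial markers did.

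Inhibitors other than Smad7 comprised 10 tested genes, 0 past the threshold, 4 above and 6 below 0, with a median of -0.08. Smad6, the other inhibitory SMAD, was lower in every pregnant library, at 21.9 ± 0.779 and 19.5 ± 1.09 FPKM (SD, n = 3 each; log2 change -0.17 ± 0.0734, SE; limma adjusted p = 0.381). Smurf2, a ubiquitin ligase that works with Smad7, was at 23.4 ± 2.26 and 20.7 ± 0.559 FPKM (limma adjusted p = 0.417). Ppm1a, a phosphatase of activated SMADs, was at 10.7 ± 1.74 and 9.14 ± 0.0990 FPKM, also without overlap (limma adjusted p = 0.438).

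Target genes of TGF-beta showed no common direction. Of 16, 9 were tested and 0 passed, with 5 above and 4 below 0 and a median of 0.02. Cdkn1a, the cell cycle inhibitor p21, was at 43.0, 24.4 and 85.1 FPKM and at 32.6, 27.6 and 24.4 FPKM, its highest value in non-pregnant library 3 (limma adjusted p = 0.450). Col3a1, a fibrillar collagen of fibroblasts, was low in both groups, at 0.909 ± 0.503 and 1.17 ± 0.198 FPKM (SD, n = 3 each; limma adjusted p = 0.594).

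**Figure D4:**
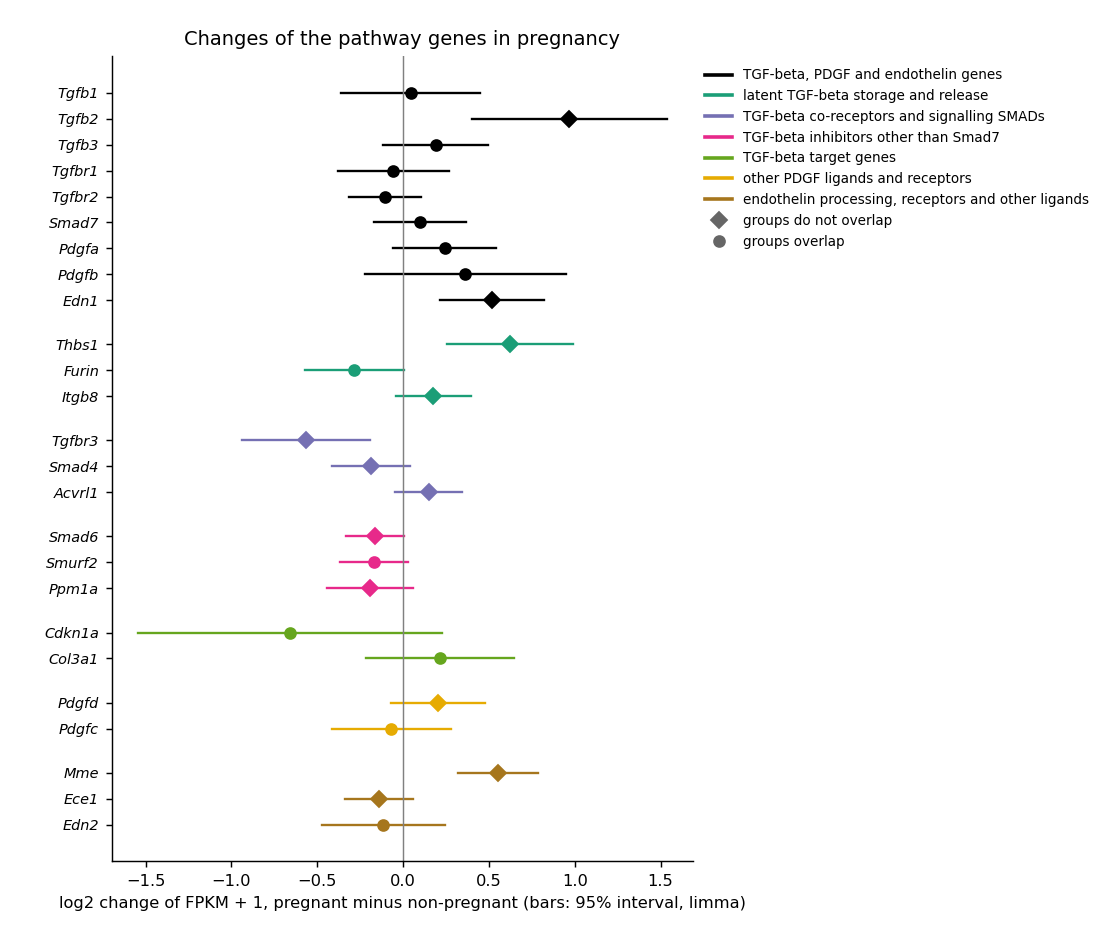
Change of log2(FPKM + 1), pregnant minus non-pregnant, with its 95% interval from limma, for the 9 genes (black) and for up to 3 tested genes of each related list with the smallest p (colours); diamonds mark genes whose groups do not overlap. Tgfb2 (0.97), Thbs1 (0.62), Mme (0.55) and Edn1 (0.52) have intervals above 0 and Tgfbr3 (-0.57) an interval below 0, and none of the genes drawn passed the adjusted threshold.

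The 9 genes were mostly more scattered among the non-pregnant libraries. Non-pregnant library 3 gave the lowest value for 5 of the 9, namely Tgfb1, Tgfb2, Tgfb3, Pdgfa and Pdgfb, and for 28.5% of all tested genes. Non-pregnant library 2 gave the lowest for Smad7, Tgfbr1 and Edn1, and for 14.2% overall. The coefficient of variation of Pdgfb was 40.4% in the non-pregnant group and 0.252% in the pregnant one, and that of Tgfb2 was 38.1% and 19.3%. Leaving out non-pregnant library 3 brought the changes of Tgfb3, Pdgfa and Pdgfb to 0.03, 0.10 and 0.04, while Tgfb2 and Edn1 stood at 0.71 and 0.61.

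**Figure D5:**
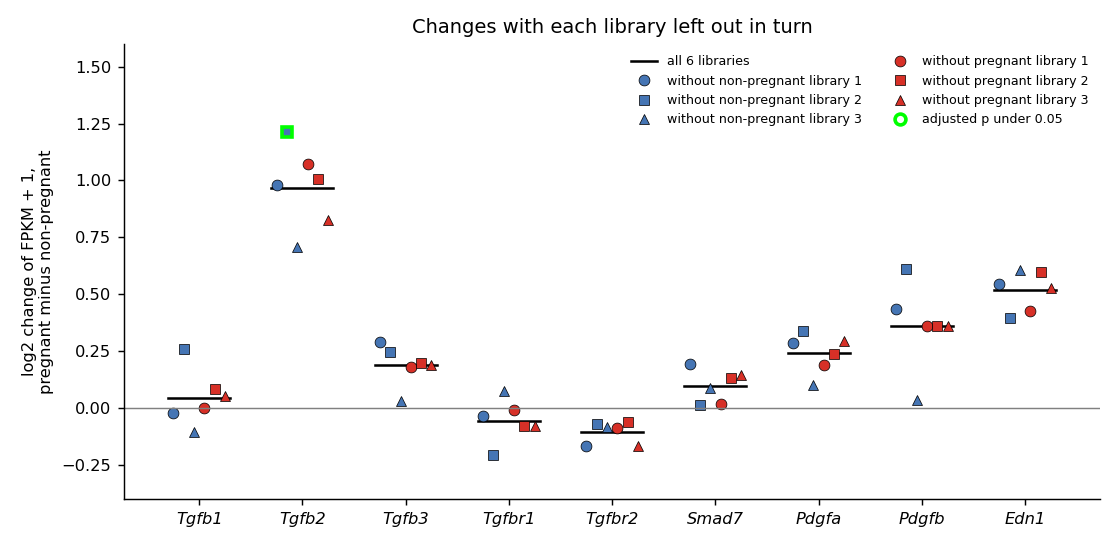
Log2 change of each of the 9 genes with all 6 libraries (black lines) and with each library left out in turn (blue, a non-pregnant library left out; red, a pregnant one; a green outline marks limma adjusted p under 0.05). Tgfb2 stays between 0.71 and 1.22 and Edn1 between 0.40 and 0.61, and Tgfb1 and Tgfbr1 lie on both sides of 0.

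Over the 6 libraries the tested genes whose log2 values followed each of the 9 most closely were compared by Pearson's r, as a description. Closest to Tgfb2 were Kif9 (r = 0.995) and Nme5 (0.994), and closest to Edn1 were Usp49 (0.995) and Mki67 (0.989), the proliferation marker. For Tgfb1 they were Vim (0.992) and Rarres2 (0.991), and for Tgfb3 Pomt1 and Shc2 (0.998 each). For Pdgfa they were Tmem141 (0.999) and Ttc8 (0.994), and for Pdgfb Dnajb2 and Dpysl4 (0.998 each). For Tgfbr1 they were Rabgap1l (0.994) and Mill2 (0.991), for Tgfbr2 Vdac3 and Pfdn2 (0.988 each), and for Smad7 Bcl2l11 (0.980) and Gpr3 (0.979). With 6 points such values are common: an r above 0.95 was reached by 304 named genes for Pdgfb, 199 for Tgfb2, 34 for Edn1 and 10 for Smad7. No gene of the 9 was among the closest to another.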

How the data were processed

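The authors deposited FPKM values in 1 column per library, covering 21700 genes. Build mm10 and, as tools, STAR 2.7.9a, HTSeq 0.13.5, DESeq2 1.30.1 and cutadapt 3.4 are listed per the submitters' processing notes, with no roles given. Per the labels' protocols, libraries were made from RNA of FACS-sorted cells with a KAPA RNA HyperPrep kit that includes ribosomal RNA removal. The median-of-ratios factors of the deposited FPKM were the same in all 6 libraries. The values were thus already on that scale, and applying it again changed nothing.

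Values times GENCODE vM21 exon length gave whole fragments for 98.5% of the values above 0 (tolerance 0.01). The test was limma 3.58.1 (trended empirical Bayes, two-sided) in R 4.3.3 on log2(FPKM + 1), with a pseudocount of 1 FPKM that understates the change of low genes, for genes averaging 1 FPKM or more, at an adjusted p under 0.05. The fit was also run on simulated data with an equal spread in every library. The non-pregnant libraries here were uneven, so no conclusion is drawn from that run. Python 3.11.15, pandas 2.3.3 and scipy 1.17.1 made the tables. The alternatives were other pseudocounts, filters, scalings, empirical Bayes settings, array weights, limma-voom, a replicate block and leaving out each library.

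The 9 genes, the related lists and the markers were chosen with earlier results of these data known. Named beside the 9 were up to 3 tested genes of each related list by smallest p, the PDGF and endothelin receptors, biliary and other cell markers, and the 2 genes most like each of the 9, leaving out gene models without a name. A further gene that this rule chose is not reported here. Ctgf, listed among the target genes, was matched to Ccn2 through RefSeq synonyms. Promoter windows are from RefSeq (GRCm38.p6).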

Additional observations from a re-analysis of the deposited data

How the results depend on the processing

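Of 171 values for the 9 genes (9 genes under 19 alternatives), 163 kept their direction and their side of the threshold and 5 changed sign. The other filters, the empirical Bayes settings and the replicate block leave a log2 change as it is, and median-of-ratios scaling left it nearly so. Under these only the side of the threshold could change, so the count overstates how far direction was tried. The number of the 9 genes past the threshold was 0 with all libraries, 2 with array weights and between 0 and 1 with a library left out. Among all genes it was 10, and 0 with no filter on low values, 4 with a mean of at least 5 FPKM, 5 with robust empirical Bayes, 1 with limma-voom, 1301 with array weights and between 0 and 133 with a library left out. Array weights ran from 0.205 for non-pregnant library 3 to 3.68 for non-pregnant library 1. The sign changes were in Smad7 with array weights (-0.027), and with a library left out in Tgfb1 (-0.11 to 0.26), Tgfbr1 (-0.21 to 0.074) and, beside the 9, Pdgfc (-0.19 to 0.073). The cause was not tested. With a library left out, an alternative chosen after seeing the data, the Tgfb2 share of the ligands was higher in pregnancy by 10.4 to 15.1 percentage points.

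Libraries with the same number did not deviate together (correlations of 0.07, 0.02 and -0.14). With so few libraries in each group this cannot settle whether the numbers pair them. A second label numbers non-pregnant library 3 differently. With the replicate block 13 genes passed, 0 of the 9 among them.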
